A study of Mus musculus with 2 samples.

Results

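The oligodendrocyte lineage transcription factors described here are 9 genes, Olig1, Olig2, Sox10, Sox8, Nkx2-2, Sox6, Myrf, Zfp488 and Tcf7l2, out of 32285 genes in the count tables. They were chosen by symbol for their known roles between the precursor and the myelinating cell, and all 9 were found in the tables. Whole spinal cords of FVB mice at postnatal day 4 had been dissociated and measured by single-cell RNA-seq in 2 libraries. The library labelled SMA came from mSmn-/-, hSMN22tg/0 mice, and the library labelled Con from mSmn+/-, hSMN22tg/0 mice, so that both groups carried the human SMN2 transgene in the same dose and differed in 1 intact mouse Smn1 allele. Spinal muscular atrophy (SMA) follows from too little SMN protein and affects motor neurons. Each library held pooled littermates and stood alone in its group, so the spread between animals was unknown and no test of SMA against Con was made. All intervals below are 95% intervals for counting error only.

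Oligodendrocytes wrap axons of the central nervous system in myelin. They arise from oligodendrocyte precursor cells (OPCs), which leave the cell cycle, pass through a committed precursor stage (COP) and a newly formed stage, and then switch on the genes of the myelin sheath. The transcription factors act in relays along this path. Olig2 specifies the lineage and Sox10 keeps its identity, Sox6 is known to hold precursors back, Nkx2-2 acts when differentiation begins, Tcf7l2 is a nuclear partner of the Wnt pathway that appears for a short time in differentiating cells, and Myrf drives the myelin genes of the mature cell.

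The deposited tables held 26921 barcodes with 85872075 unique molecular identifiers (UMIs, 1 for each captured RNA molecule) labelled SMA, and 25419 barcodes with 97894084 UMIs labelled Con. The libraries shared 8163 barcodes, and those were left out of the library labelled SMA. After the filters 6787 and 8917 cells were kept, with medians of 6109 and 6229 UMIs. Smn1 was at 48.1 (46.2 to 50.2) and 43.8 (42.2 to 45.5) CPM (UMIs of the gene in 1000000 UMIs) in these, but a 3′ tag outside the deleted part of the gene does not check the labels.

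The lineage was divided into 5 classes named from markers, with the 9 members kept out of the clustering and the naming. OPC-like cells numbered 1165 (SMA) and 854 (Con), cycling OPC-like cells 788 and 788, COP-like cells 243 and 456, newly formed oligodendrocytes 129 and 372, and myelinating oligodendrocytes 230 and 573. A further cluster of 92 and 87 cells, with Dll1 and Grk3 among its leading genes, held 1 marker of astrocytes and 1 of OPCs among its 60 leading genes and stayed unnamed. The classes were cut from the same cells whose levels are given, so levels in different classes are a description. The name of the myelinating class was borne out in only a part of it. Myelin markers led the class, but its median was 2416 and 1722 UMIs a cell, against 11413 and 10835.5 in newly formed oligodendrocytes. In a finer division, 154 of its 230 cells labelled SMA (67.0%, 60.5 to 73.0) and 431 of its 573 cells labelled Con (75.2%, 71.5 to 78.7) fell into a shallow cluster led by Lims2, Bcas1 and Mbp that met no class's rule for a name. Mog, a surface protein of mature myelin, was at only 37.1 and 33.4 CPM there. Markers of erythroid cells summed to 70068 and 175942 CPM in the whole myelinating class. Levels in that class are therefore given for the whole class and for the deep cluster led by Mog, of 26 cells labelled SMA and 19 labelled Con, in which Mog stood at 4057 and 3979 CPM.

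On GRCm38, the build that the labels list as mm10, Olig1 (chr16:91269772-91271933) and Olig2 (chr16:91225457-91228677) share the plus strand of 1 chromosome with 41094 bases between them. Myrf (chr19:10208272-10240748, minus strand) and Tcf7l2 (chr19:55741820-55933654, plus strand) lie far apart on another. Sox10 (chr15:79154908-79165240), Sox8 (chr17:25565892-25570686), Nkx2-2 (chr2:147177546-147194243), Sox6 (chr7:115470872-116038796) and Zfp488 (chr14:33967070-33978764) are all on minus strands. Genes on the opposite strand overlap Olig1 (Gm15966), Nkx2-2 (Nkx2-2os and 6430503K07Rik), Sox8 (2810468N07Rik) and Sox6 (Gm45025 and Sox6os), and Ppnr overlaps Tcf7l2 on its own strand. Whether the counting used strand was not given in the sources used here, so UMIs of these pairs may not be fully separated.

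Promoter sequence was looked at because several members were higher at the same stage. Windows from 250 bases before to 50 bases after the start, from RefSeq on GRCm38.p6, were present for 6 of the 9 members (Olig2, Nkx2-2, Sox8, Sox6, Zfp488 and Tcf7l2) but not Olig1, Sox10 and Myrf. The strings were searched on both strands, namely the E-box CANNTG bound by Olig proteins with their E protein partners, a short form of the Myrf site, CTGGNAC, and the HMG-box core ACAAAG of Sox and Tcf factors. They occurred in 72.3%, 19.3% and 18.7% of all 32851 windows of 300 bases. The 250 bases before the start are printed for 3 members that were higher in COP-like than in OPC-like cells or came close to it, with matches in capitals.
Sox8, chr17:25570687-25570936, minus strand: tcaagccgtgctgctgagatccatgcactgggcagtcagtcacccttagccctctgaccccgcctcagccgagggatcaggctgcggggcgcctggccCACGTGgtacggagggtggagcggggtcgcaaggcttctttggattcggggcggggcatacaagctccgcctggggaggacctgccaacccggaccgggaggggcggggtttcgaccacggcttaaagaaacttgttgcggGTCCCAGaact
Zfp488, chr14:33978765-33979014, minus strand: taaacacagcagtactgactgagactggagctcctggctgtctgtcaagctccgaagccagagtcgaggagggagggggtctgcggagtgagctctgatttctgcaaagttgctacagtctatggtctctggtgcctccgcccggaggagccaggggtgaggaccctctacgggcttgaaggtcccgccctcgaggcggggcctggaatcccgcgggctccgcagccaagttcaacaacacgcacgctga
Zfp488, first 30 bases from the start, chr14:33978735-33978764, minus strand: aggacccgCAGCTGGTACactcaacctgcc
Tcf7l2, first start, chr19:55741560-55741809, plus strand: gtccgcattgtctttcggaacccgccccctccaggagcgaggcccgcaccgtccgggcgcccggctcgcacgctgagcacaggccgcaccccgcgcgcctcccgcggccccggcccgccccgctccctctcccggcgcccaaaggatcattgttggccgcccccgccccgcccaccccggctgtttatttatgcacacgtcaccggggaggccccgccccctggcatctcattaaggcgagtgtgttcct
Sox8 held 1 E-box and 1 CTGGNAC match, read on the other strand as GTNCCAG. Zfp488 held an E-box and a CTGGNAC match just after its start, which share letters. None of the 3 strings occurred in the Tcf7l2 stretch. Nkx2-2 held 3 E-boxes and neither of the other strings, and its stretch is not printed because annotated exons overlap it. The same CTGGNAC string was in 0 of the other windows of the members, and HMG-box cores were found in 5 of the 6 Sox6 windows and at a later Tcf7l2 start. These matches describe letters and were not tested for binding.

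Levels were expressed as CPM, the UMIs of a gene summed over the cells of a class and scaled to all UMIs of that class. UMIs of the members were most frequent in the lineage. After each cell was thinned to 1000 UMIs, OPC-like cells held UMIs of 1.65 and 1.81 of the 9 members on average in the libraries labelled SMA and Con. COP-like cells held 2.45 and 2.46, newly formed oligodendrocytes 2.09 and 2.06, and the shallow myelinating class 0.913 and 1.01 (207 of 230 and 454 of 573 of its cells had 1000 UMIs or more). Microglia-like cells held 0.153 and 0.143 and erythroid-like cells 0.0542 and 0.0798, which was the background. At their full depth these background classes had medians of 6889.5 and 7155.5 UMIs a cell (microglia-like) and 9730.0 and 9795.0 UMIs (erythroid-like), against 5318 and 5353 UMIs in OPC-like cells.

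Some members had more UMIs in another cell type than in these background classes. Olig1 stood at 329 and 416 CPM in astrocyte-like cells, and Sox8 at 73.2 and 82.1 CPM there, in the libraries labelled SMA and Con. Sox10, which Schwann cells of the peripheral nerve also need, was at 85.1 and 134 CPM in Schwann-like cells but at 5.22 and 6.91 CPM in astrocyte-like cells. Tcf7l2 reached 49.7 and 43.3 CPM in endothelial-like cells, little above its 34.1 and 34.7 CPM in microglia-like cells, and Sox6 62.3 and 53.4 CPM in ependymal-like cells. Zfp488 had a highest level of 5.36 CPM over the 18 class and library sums outside the lineage, against 13.6 to 69.4 CPM inside its 5 named classes.

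**Figure D1:**
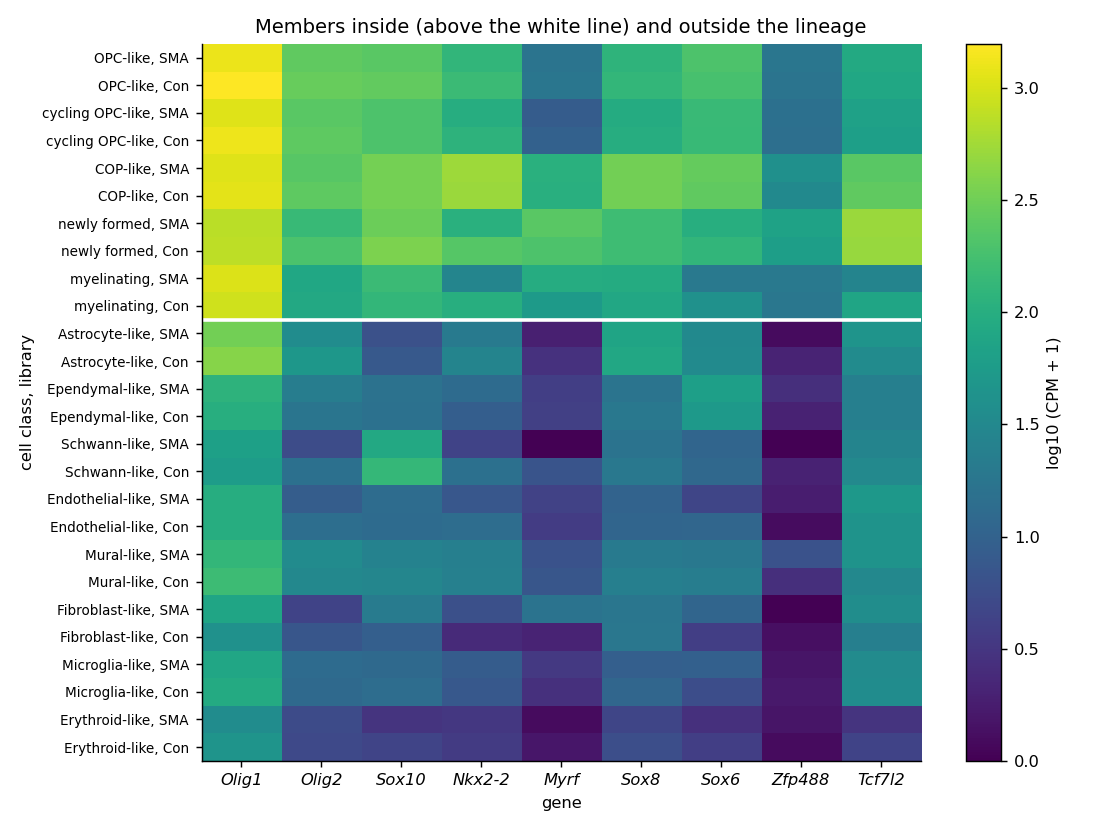
Heat map of log10(CPM + 1) of the 9 members (columns) in cell classes of each library (rows), with the lineage above the white line. Olig1 reached 416 CPM in astrocyte-like cells labelled Con and Sox10 134 CPM in Schwann-like cells labelled Con, and both were higher in OPC-like cells.

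Olig1 and Olig2 encode sister basic helix-loop-helix factors, of which Olig2 is needed to specify the lineage and Olig1 for its maturation. Olig1 was at 1266 (1238 to 1294) and 1572 (1536 to 1608) CPM in OPC-like cells of the libraries labelled SMA and Con. It stood at 1093 and 1165 CPM in COP-like cells, 726 and 758 CPM in newly formed oligodendrocytes and 1067 and 927 CPM in the myelinating class. Its level was thus lowest in newly formed oligodendrocytes and higher again in the last class, by 0.56 and 0.29 on the log2 scale (a log2 value of 1 is 2-fold). Olig2 had no such return. It was at 259 (246 to 272) and 287 (272 to 303) CPM in OPC-like cells, 229 and 249 CPM in COP-like cells, 140.2 and 192 CPM in newly formed oligodendrocytes and 78.3 and 84.9 CPM in the myelinating class. Both libraries gave Olig2 this order, and OPC-like and COP-like cells were close neighbours in it, with ratios of -0.18 (-0.34 to -0.02) and -0.20 (-0.33 to -0.08) on the log2 scale.

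Sox10 and Sox8 are related SoxE factors, and Sox10 keeps the lineage's identity and acts with Myrf on myelin genes. Sox10 was at 238 (226 to 250.4) and 268 (253 to 283) CPM in OPC-like cells, 335 and 333 CPM in COP-like cells and 301 and 367 CPM in newly formed oligodendrocytes. The order of COP-like and newly formed cells differed between the libraries, with a ratio of -0.15 and 0.14 on the log2 scale. The myelinating class was lower, at 149 and 129.5 CPM. Sox8 was highest at the committed stage. It was at 119 (111 to 128) and 132 (121 to 142) CPM in OPC-like cells and at 324 (298 to 352) and 329 (309.7 to 348) CPM in COP-like cells, and stood at 159 and 161 CPM in newly formed oligodendrocytes and 92.8 and 82.5 CPM in the myelinating class.

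Nkx2-2, a homeodomain factor of differentiating oligodendrocytes, was highest at the committed stage. It was at 126 (117 to 135) and 152 (141 to 164) CPM in OPC-like cells and 533 (499 to 569) and 522 (498 to 547) CPM in COP-like cells. The level was 107 and 223 CPM in newly formed oligodendrocytes and 27.8 and 101 CPM in the myelinating class. After thinning, 42.4% and 42.5% of COP-like cells held a Nkx2-2 UMI, against 11.3% and 12.9% of OPC-like cells and 1.06% and 0.831% of microglia-like cells. Unthinned, the shares were 95.1% and 95.4%, 44.9% and 51.1% and 3.84% and 3.44%. Sox6, a SoxD factor that keeps precursors immature, was also highest in COP-like cells, at 274 (250.0 to 299.9) and 258 (241 to 275) CPM against 202 (191 to 214) and 184 (172 to 196) CPM in OPC-like cells. It was lower in newly formed oligodendrocytes, at 98.6 and 127 CPM, and in the myelinating class, at 18.6 and 40.3 CPM.

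Myrf and Zfp488 were highest at the stage after the committed one. Myrf, a membrane-tethered factor that is required for myelin gene expression, was at 16.0 (13 to 19.5) and 16.7 (13.2 to 20.9) CPM in OPC-like cells. It was at 104 and 102 CPM in COP-like cells and 238 (214 to 264) and 198 (185 to 212) CPM in newly formed oligodendrocytes, and at 94.8 and 53.8 CPM in the myelinating class. Zfp488, a zinc finger repressor that works with Olig2, stood at 16.8 and 16.1 CPM in OPC-like cells, 38.7 and 32.1 CPM in COP-like cells, 69.4 (56.9 to 83.9) and 60.8 (53.4 to 68.9) CPM in newly formed oligodendrocytes and 18.6 and 17.7 CPM in the myelinating class. Both genes had their highest level in newly formed oligodendrocytes in both libraries.

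Tcf7l2 was highest in newly formed oligodendrocytes as well. OPC-like cells were at 85.2 (78.2 to 92.8) and 79.6 (71.7 to 88.1) CPM, COP-like cells at 237 and 258 CPM and newly formed oligodendrocytes at 513 (478 to 550.4) and 509 (487 to 531) CPM, while the myelinating class was at 26.8 and 75.2 CPM. After thinning, 36.4% and 37.1% of newly formed oligodendrocytes held a Tcf7l2 UMI, against 23.0% and 25.4% of COP-like cells, 7.22% and 8.20% of OPC-like cells and 3.84% and 3.56% of microglia-like cells. The unthinned shares in the same order were 97.7% and 98.1%, 72.4% and 77.2%, 35.3% and 32.9% and 19.9% and 22.0%. In the myelinating class the thinned shares were 3.38% (1.37 to 6.84) and 5.29% (3.42 to 7.76), intervals that held the microglial shares. The shares in erythroid-like cells were 0.246% (0.00624 to 1.36) and 0.532% (0.173 to 1.24), so that by shares the myelinating class lay above the erythroid-like cells. By CPM the myelinating class labelled Con, at 75.2, was above the highest level of these background classes, 34.7. The myelinating class labelled SMA, at 26.8, was below it.

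**Figure D2:**
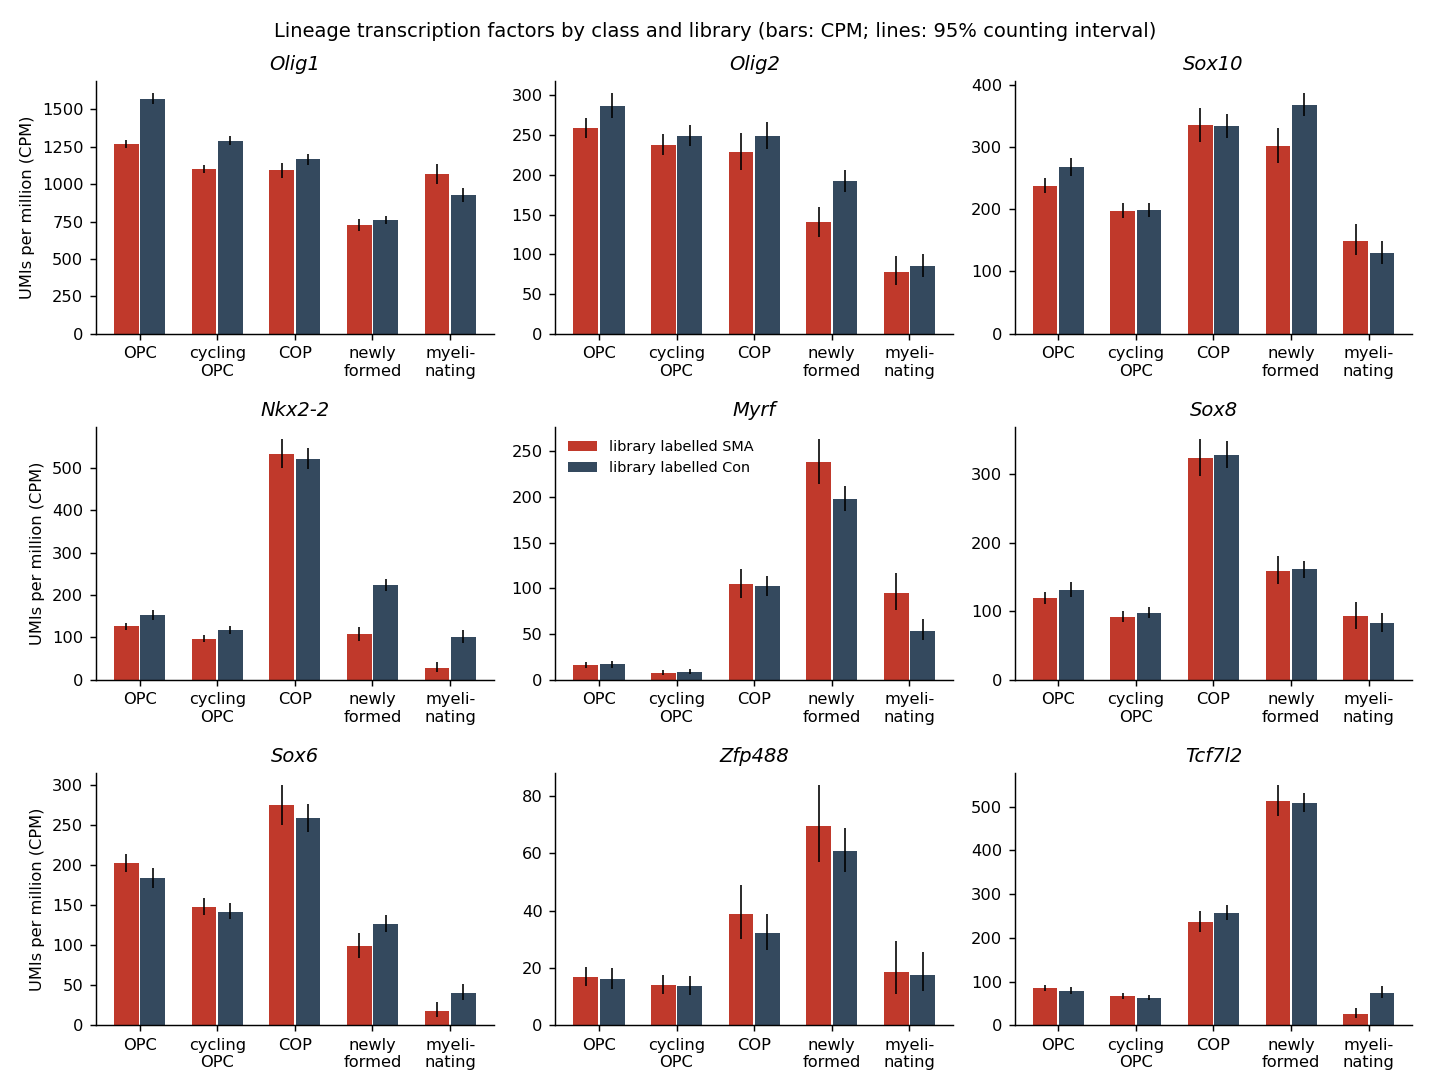
CPM of each member (1 panel a gene, linear axes from 0) in the 5 lineage classes, with 1 bar a library and lines for the 95% counting interval. Nkx2-2 and Sox8 were highest in COP-like cells and Myrf, Zfp488 and Tcf7l2 in newly formed oligodendrocytes, in both libraries.

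A step between neighbouring classes was counted for a gene when it was at least 2-fold in the same direction in both libraries and the gene had 20 or more UMIs over both classes in each library. From OPC-like to COP-like cells, 4 of 9 members were higher by this rule and 0 were lower, beside 2.69% of 11520 genes that were higher and 7.16% that were lower. These were Nkx2-2, at 2.08 (1.95 to 2.22) and 1.78 (1.65 to 1.91) on the log2 scale in the libraries labelled SMA and Con, Myrf at 2.70 (2.34 to 3.07) and 2.61 (2.25 to 2.98), Tcf7l2 at 1.47 (1.28 to 1.66) and 1.70 (1.52 to 1.87) and Sox8 at 1.44 (1.28 to 1.60) and 1.32 (1.18 to 1.46). Zfp488, at 1.20 and 0.996, came just under 2-fold in the library labelled Con. The members' median was 1.20 and 0.996, where the median of all genes was -0.05 and -0.11. With the shared barcodes kept in the library labelled SMA and the cells clustered anew, 5 members were higher, and Nkx2-2 was at 1.60 and 1.43 and Zfp488 at 1.55 and 1.29.

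From COP-like cells to newly formed oligodendrocytes, 3 members were lower and 0 were higher by the rule, beside 10.4% of 9463 genes lower and 5.28% higher. The lower members were Nkx2-2, at -2.32 (-2.56 to -2.08) and -1.23 (-1.35 to -1.11) on the log2 scale, Sox6 at -1.47 (-1.75 to -1.21) and -1.03 (-1.18 to -0.87) and Sox8 at -1.03 and -1.03. Tcf7l2 at 1.12 and 0.98 and Myrf at 1.19 and 0.96 passed 2-fold among cells labelled SMA and came just short of it among cells labelled Con, and Zfp488 was at 0.84 and 0.92. The members' median was -0.59 and -0.38, against -0.28 and -0.18 over all genes. The split by direction rested on the scaling. With the ratios centred on the median of well-counted genes, which raised them by 0.16 and 0.15, 1 member was lower (Nkx2-2, at -2.16 and -1.08) and 3 were higher (Tcf7l2, at 1.28 and 1.13, Myrf and Zfp488). In deep cells 2 were lower, and with each cell weighted equally Nkx2-2 was lower and Tcf7l2 higher.

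From newly formed oligodendrocytes to the myelinating class, 6 members were lower and 0 higher, beside 10.8% of 8180 genes lower and 6.45% higher. Tcf7l2 had a ratio of -4.26 (-4.88 to -3.70) and -2.76 (-3.03 to -2.50) on the log2 scale. The others past 2-fold were Sox6 at -2.41 and -1.65, Nkx2-2 at -1.94 and -1.14, Zfp488 at -1.90 and -1.78, Myrf at -1.33 and -1.88 and Sox10 at -1.01 and -1.50. Olig1 was the only member above 0. The members' median was -1.33 and -1.50, against -0.29 and -0.46 over all genes. With the ratios centred on the median of well-counted genes, which raised them by 0.29 and 0.48, 4 members were lower, since Sox10 was at -0.72 and -1.02 and Nkx2-2 at -1.65 and -0.66. Without the cells of the highest doublet scores 5 were lower, and 7 with each cell weighted equally. This step includes the shallow cells described above and the globin UMIs that came with them.

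Cycling OPC-like cells were compared with the other OPC-like cells in the same way. By this rule 0 of 9 members passed 2-fold in both libraries, beside 4.73% of 12123 genes in either direction. Each of the 9 was lower in cycling cells in both libraries, from -0.12 and -0.20 for Olig2 to -1.09 and -0.94 for Myrf, with a median of -0.35 and -0.37 against -0.16 and -0.20 over all genes. Erythroid markers summed to 40009 and 71930 CPM in cycling cells and to 2437 and 4203 CPM in the other OPC-like cells, and their part in these ratios was not tested. With the shared barcodes kept, Olig2 was at 0.02 and -0.07, and with the ratios centred on the median of well-counted genes, at 0.03 and -0.02.

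The finer division resolved the later stages into clusters named here by their leading genes. A Gpr17 cluster (228 and 411 cells) came first, an Enpp6 cluster (90 and 328 cells) stood next, a cluster led by 9630013A20Rik and Cldn11 (60 and 90 cells) followed, then a cluster led by Mobp and Mog (87 and 161 cells), and the deep Mog cluster (26 and 19 cells) came last. Mog was at 3.79 and 8.29 CPM, 20.9 and 57.0 CPM, 297 and 172 CPM, 753 and 575 CPM and 4057 and 3979 CPM in this order. The Mobp cluster was shallower than the rest, with medians of 4405 and 2701 UMIs a cell against 6720.5 to 14570.5 UMIs in the other 4, and it was mixed. Of its cells, 48 of 87 labelled SMA (55.2%) and 119 of 161 labelled Con (73.9%) were in the myelinating class, while 26 and 28 were OPC-like and 12 and 13 astrocyte-like in the main division. By the marker rule the first pair was COP-like and the last 3 were myelinating, and no newly formed class was left at this division.

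Along this order Nkx2-2 was at 540.1 and 537 CPM in the Gpr17 cluster, 256 and 318 in the Enpp6 cluster, 17.3 (9.47 to 29.1) and 26.5 (17.9 to 37.9) in the 9630013A20Rik cluster, 74.8 (51.5 to 105) and 79.4 (58.4 to 106) in the Mobp cluster and 16.0 (5.86 to 34.7) and 29.8 (12 to 61.4) in the Mog cluster. Sox6 was at 279.5 and 268 CPM, 200.4 and 174 CPM, 11.1 and 14.2 CPM and 86.2 (61.0 to 118) and 62.5 (44.0 to 86.2) CPM in the first 4 clusters. In the Mog cluster Sox6 had 1 UMI among cells labelled SMA and 0 among those labelled Con. Among the first 3 clusters, the widest ratio between neighbours lay between the Enpp6 and the 9630013A20Rik cluster for both genes and in both libraries. Both genes were higher in the mixed Mobp cluster, with its OPC-like cells, than in its neighbours on either side, although the Nkx2-2 intervals of the Mobp and Mog clusters overlapped in the library labelled Con.

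Tcf7l2 was higher in the first 3 of these clusters than in the last pair. It was at 225 and 243 CPM in the Gpr17 cluster, 539 and 482 in the Enpp6 cluster, 444 and 533 in the 9630013A20Rik cluster, 61.2 (40.4 to 89.1) and 81.1 (59.8 to 108) in the Mobp cluster and 16.0 (5.86 to 34.7) and 38.3 (17.5 to 72.7) in the Mog cluster. Myrf was at 97.4 and 92.9 CPM, 179.5 and 168 CPM, 281 and 272 CPM, 31.7 (17.4 to 53.3) and 67.6 (48.3 to 92.1) CPM and 207 (164 to 259) and 174 (125 to 237) CPM, so that it was lower in the mixed Mobp cluster than on either side and present in the cells with most Mog. Sox10 was at 218 (173 to 271) and 162 (114 to 222) CPM in the Mog cluster and Sox8 at 152 (115 to 196) and 191 (139.7 to 256) CPM. Zfp488 was at 37.2 (20.4 to 62.5) and 21.3 (6.91 to 49.7) CPM there, from 14 and 5 UMIs. Olig1 was higher there, at 1458 (1338 to 1585) and 1357 (1213 to 1515) CPM, than in the 9630013A20Rik cluster, at 752 (693 to 814) and 709 (660.3 to 759) CPM, while Olig2 was at 66.5 (43.0 to 98.2) and 80.8 (48.7 to 126) CPM there against 129.9 (106 to 157) and 154 (132 to 179) CPM.

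**Figure D3:**
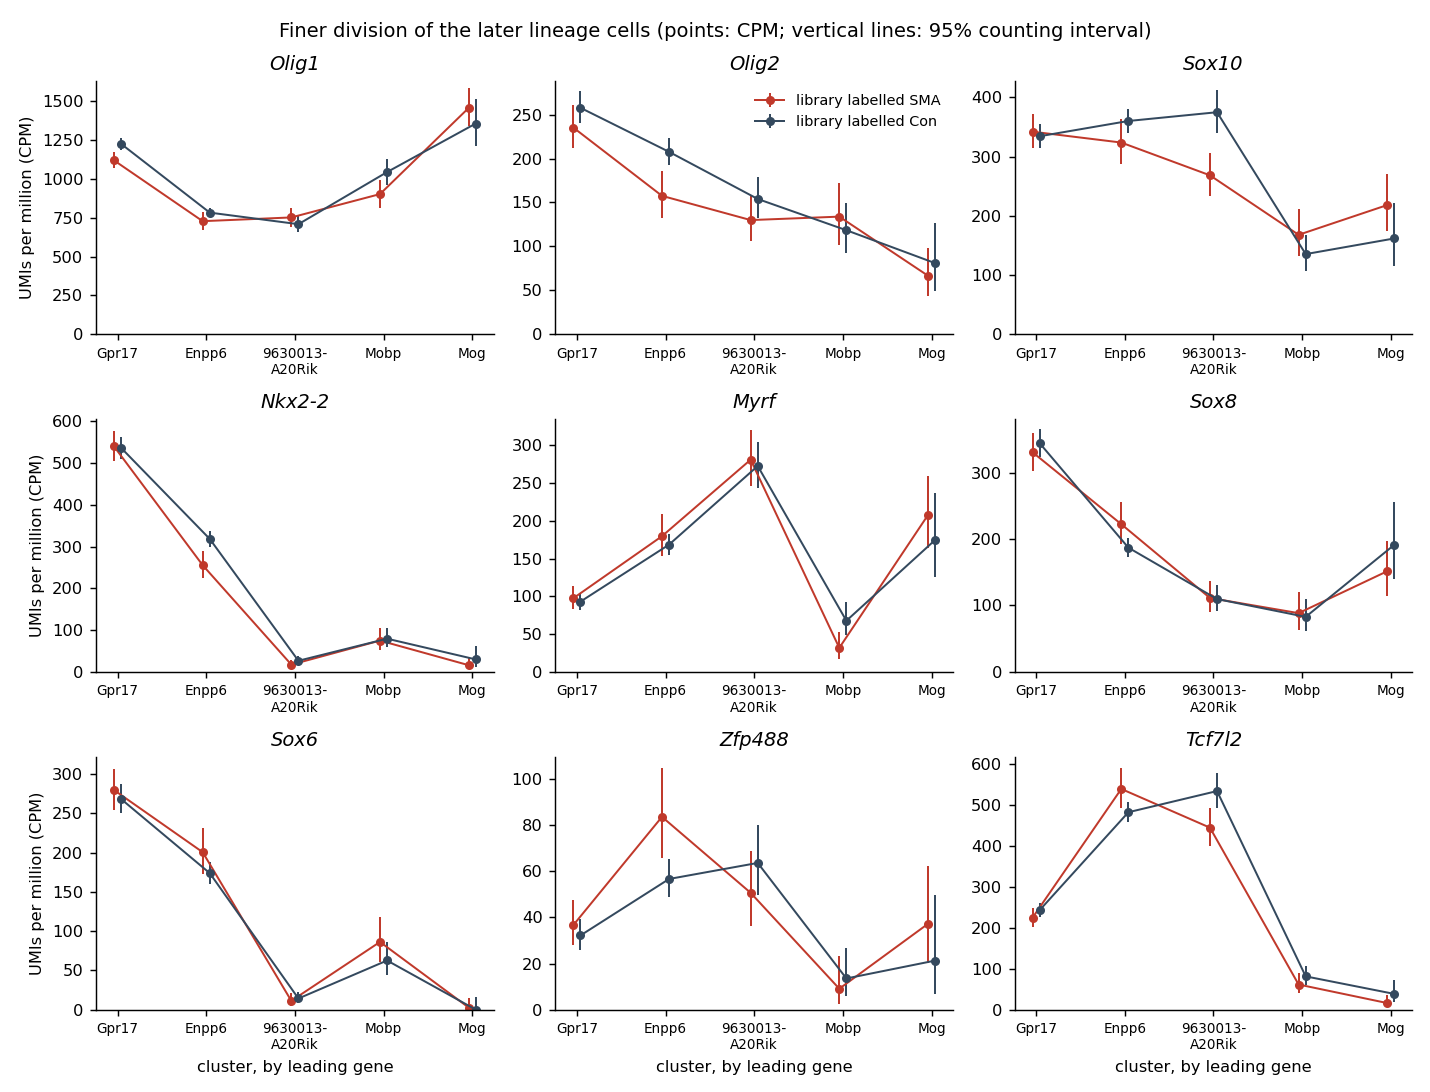
CPM of each member (1 panel a gene) in 5 clusters of a finer division, in order of the Mog level, with 1 line a library and 95% counting intervals. Nkx2-2 and Sox6 were higher in the Mobp cluster (Nkx2-2 at 74.8 and 79.4 CPM), which also held OPC-like and astrocyte-like cells, than in the clusters on either side, Myrf was lower there, and Tcf7l2 was low in the Mobp and Mog clusters.

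The libraries labelled SMA and Con were then compared within each class, as the log2 ratio of SMA over Con, where a gene was counted when it differed at least 2-fold and had 20 or more UMIs. In OPC-like cells 0 of 9 members were past 2-fold, beside 2.22% of 12315 genes. Olig1 was at 1266 (SMA) and 1572 (Con) CPM, a ratio of -0.31 (-0.36 to -0.27). Nkx2-2 was at -0.27 (-0.42 to -0.12), Sox10 at -0.17 (-0.28 to -0.06), Olig2 at -0.15 (-0.26 to -0.05) and Sox6 at 0.14 (0.01 to 0.26). The other 4 members had intervals that held 0, from -0.14 (Sox8) to 0.10 (Tcf7l2). The members' median was -0.14, and that of all genes -0.02. With the shared barcodes kept, Olig1 was at -0.26 and Nkx2-2 at -0.29. Myelinating markers summed to 995 (SMA) and 1625 (Con) CPM in OPC-like cells, with 11 of 14 lower, and erythroid markers to 2437 and 4203 CPM, with 7 of 8 lower and Slc4a1 at 0 in both. Their part in these ratios was not tested.

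Cycling OPC-like cells had 0 of 9 members past 2-fold beside 2.02% of 12193 genes. Olig1 had a ratio of -0.23 (-0.28 to -0.18) and Nkx2-2 of -0.27 (-0.44 to -0.10), and the intervals of the other 7 held 0. Erythroid markers summed to 40009 (SMA) and 71930 (Con) CPM there, with 6 of 8 lower, and myelinating markers to 711 and 1197 CPM, with 11 of 14 lower, and the part of these was not tested.

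In COP-like cells 0 of 9 members were past 2-fold, beside 3.3% of 10639 genes, and the widest ratio was 0.27 (-0.19 to 0.72) for Zfp488. Nkx2-2, which was highest in this class, had a ratio of 0.03 (-0.09 to 0.15), and Sox8 one of -0.02 (-0.17 to 0.13). The members' median was 0.01 (0.03 over all genes). With the shared barcodes kept, Nkx2-2 was at -0.13 and Sox8 at 0.06 in COP-like cells. Microglia markers summed to 338 CPM in COP-like cells labelled SMA and 138 CPM in those labelled Con, with 10 of 10 higher, and their part in these ratios was not tested.

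In newly formed oligodendrocytes 1 of 9 members was past 2-fold, beside 6.94% of 9870 genes. Nkx2-2 was at 107 (91.4 to 125) and 223 (208 to 238) CPM in the libraries labelled SMA and Con, a ratio of -1.06 (-1.30 to -0.82). Olig2 had a ratio of -0.45 (-0.68 to -0.23), Sox6 of -0.36 (-0.63 to -0.10) and Sox10 of -0.29 (-0.44 to -0.13), and Myrf was higher in the library labelled SMA, at 0.27 (0.08 to 0.45). Tcf7l2, which was highest in this class, was at 0.01 (-0.11 to 0.13). The members' median was -0.06, and that of all genes -0.07. When each cell was given equal weight Nkx2-2 was at -0.95 and 0 members were past 2-fold.

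The newly formed cells of the 2 libraries were not spread alike over the finer clusters. The Enpp6 cluster held 69 of 129 cells labelled SMA (53.5%, 44.5 to 62.3) and 282 of 372 cells labelled Con (75.8%, 71.1 to 80.1), and the 9630013A20Rik cluster, in which Nkx2-2 was low in both libraries, held the other 60 (46.5%) and 90 (24.2%). Within the Enpp6 cluster the Nkx2-2 ratio was -0.32 (-0.53 to -0.11), and within the 9630013A20Rik cluster -0.62 (-1.65 to 0.34). The Enpp6 cluster also held COP-like cells, 21 of its 90 cells labelled SMA (23.3%) and 46 of its 328 labelled Con (14.0%), whereas the 9630013A20Rik cluster held newly formed cells alone. Olig2 was at -0.40 (-0.67 to -0.14) and -0.24 (-0.61 to 0.11) in these clusters. Myelinating markers of the whole class summed to 39152 (SMA) and 28729 (Con) CPM, with 12 of 14 higher, and 11 of 12 OPC markers were lower. Erythroid markers were at 8835 and 1413 CPM, with Slc4a1 at 0 in both libraries, and microglia markers at 230.4 and 89.8 CPM, with 9 of 10 higher. The part of these other cells' RNA in the ratios was not tested.

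In the myelinating class 3 of 9 members were past 2-fold, all lower in the library labelled SMA, beside 9.21% of 8201 genes. Nkx2-2 was at 27.8 (18.3 to 40.5) and 101 (86.0 to 117) CPM, a ratio of -1.86 (-2.50 to -1.26). Tcf7l2 was at 26.8 (17.5 to 39.3) and 75.2 (62.5 to 89.7) CPM, with a ratio of -1.49 (-2.16 to -0.87), and Sox6 at 18.6 (11 to 29.3) and 40.3 (31.2 to 51.3) CPM, with a ratio of -1.12 (-1.96 to -0.35). Myrf was higher, at 0.82 (0.38 to 1.26), and the members' median was 0.07 against 0.13 over all genes. Within the finer clusters Myrf did not keep this direction. It was at -1.09 (-2.08 to -0.18) in the mixed Mobp cluster, from 14 and 40 UMIs, and at 0.25 (-0.31 to 0.83) in the Mog cluster. In the shallow unnamed cluster it was at -0.92 (-2.92 to 0.65), from 4 and 21 UMIs. Olig1, at 0.20 (0.09 to 0.32), was at 0.07 with median ratio scaling and at 0.01 with globin and mitochondrial genes out of the total, beside the erythroid sums of 70068 and 175942 CPM in this class. These values did not hold across divisions of the cells. At the finer division, where the class lost the shallow unnamed cells and took in the 9630013A20Rik cluster and, through the Mobp cluster, 39 and 41 cells of none of the 3 later classes, 0 members were past 2-fold, Nkx2-2 was at -0.40, Tcf7l2 at -0.48, Sox6 at 0.13 and Myrf at -0.02. With a mitochondrial limit of 20%, Nkx2-2 at -1.18 alone was past 2-fold.

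The class differed in make-up between the libraries. All 14 myelinating markers were higher in the library labelled SMA, with sums of 51925 and 30962 CPM, 8 of 9 newly formed markers were lower, and all 8 erythroid markers were lower. In cells with 5000 or more UMIs (47 and 63 cells), Mog was at 2927 and 1397 CPM, Nkx2-2 at 17.3 (8.31 to 31.9) and 135 (110.1 to 165) CPM, and Tcf7l2 at 20.8 (10.8 to 36.3) and 103 (81.0 to 129) CPM. In cells under 3000 UMIs (143 and 453 cells), Nkx2-2 was at 40.4 (19.4 to 74.2) and 61.7 (44.4 to 83.4) CPM and Tcf7l2 at 48.4 (25.0 to 84.6) and 45.5 (30.9 to 64.6) CPM. Within the Mobp cluster of the finer division (87 and 161 cells), of which 39 and 41 came from none of the 3 later classes, the Nkx2-2 ratio was -0.09 (-0.77 to 0.59) and the Tcf7l2 ratio -0.41 (-1.14 to 0.30). Within the deep Mog cluster they were -0.90 (-2.75 to 0.90) and -1.26 (-3.03 to 0.39), from 6 to 9 UMIs of each gene in each library. In the shallow unnamed cluster the Nkx2-2 ratio was -1.74 (-2.61 to -0.97) and the Tcf7l2 ratio -0.83 (-1.68 to -0.07), beside Gpr17 and Bmp4, markers of the COP stage, at 119 and 276 CPM and 13.2 and 66.7 CPM. Their part in the ratios was not tested.

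In the unnamed Dll1 and Grk3 cluster, 0 of the 7 members with enough UMIs were past 2-fold, beside 5.43% of 7389 genes, and the members' median was -0.68 against -0.04 over all genes. The 7 ratios were below 0, as were those of Myrf (6 and 6 UMIs) and Zfp488 (3 and 6 UMIs), which had too few UMIs to be counted. Olig2 was at 147 and 276 CPM, with a ratio of -0.91 (-1.29 to -0.54), and Nkx2-2 had a ratio of -0.87 (-1.48 to -0.28). Astrocyte markers summed to 5071 (SMA) and 3933 (Con) CPM there, with 10 of 10 higher, and the 9 microglia markers that were detected were all higher, with sums of 285 and 134 CPM. Erythroid markers summed to 3455 and 1769 CPM, with 5 of 8 higher and 1 lower, and myelinating markers to 518 and 1192 CPM, with 10 of 14 lower. Without the cells of the highest Scrublet scores, a score for doublets, 37 and 28 cells of this cluster were left. The part of these other cells' RNA in the ratios was not tested.

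**Figure D4:**
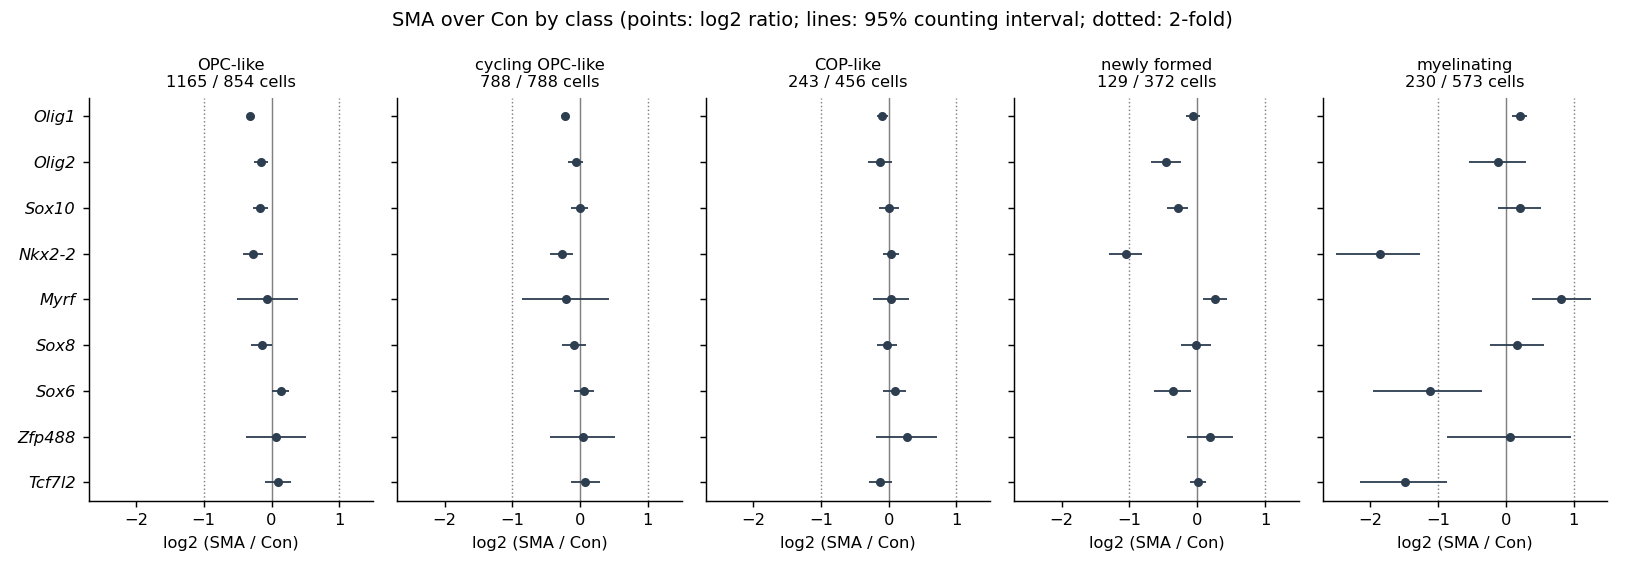
Log2 ratio of SMA over Con for each member (rows) in the 5 lineage classes (panels, with cell numbers), with lines for the 95% counting interval and dotted lines at 2-fold. All 9 members lie within 2-fold in OPC-like, cycling OPC-like and COP-like cells, Nkx2-2 is past it in newly formed oligodendrocytes, and Nkx2-2, Sox6 and Tcf7l2 are past it in the myelinating class.

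Other regulators of the lineage were followed as lists. Of the 9 genes known to hold precursors back, 0 were higher and 4 lower in COP-like than in OPC-like cells (2.69% and 7.16% of all genes), among them Id2 at -2.20 and -2.75 on the log2 scale and Hes5, a Notch target, at -1.68 and -1.84. The list's median was -1.09 and -0.67, against -0.05 and -0.11 over all genes. In newly formed oligodendrocytes 6 of 8 tested were lower than in COP-like cells (Id1, Id3, Hes1, Hes5, Sox5 and Sox11), beside 10.4% of all genes, while Sox4 was higher at 1.11 and 1.19, beside 5.28%, and the list's median was -3.06 and -1.77. In the myelinating class Id1, Id2, Id3 and Hes5 were higher again than in newly formed oligodendrocytes (4 of 7 tested, beside 6.45% of all genes), a class that held more UMIs of astrocyte markers, at 1732 and 1539.9 CPM against 236 and 297 CPM, and the part of those was not tested. Sox4 was lower at that step, and the list's median was 1.43 and 1.68. Of the E proteins, which pair with Olig factors on DNA, Tcf4 was lower in newly formed oligodendrocytes at -1.70 and -1.36, and Tcf3 and Tcf12 passed 2-fold in both libraries at no step. Tcf12 came close from newly formed oligodendrocytes to the myelinating class, at -0.99 (-1.41 to -0.58) and -1.52 (-1.84 to -1.20). The median of these 3 was 0.29 and 0.31 from OPC-like to COP-like cells, -0.84 and -0.61 at the next step and -0.30 and -0.75 at the last.

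Of 10 further lineage regulators, 9 had enough UMIs at the first and second step and 8 at the last. At the first step 1 was higher and 3 were lower, beside 2.69% and 7.16% of all genes. At the second 2 were higher and 4 lower, beside 5.28% and 10.4%. At the last 2 were higher and 1 lower, beside 6.45% and 10.8%. Zeb2, which is needed for differentiation, was higher in COP-like than in OPC-like cells at 1.64 and 1.71, and Sox9, Myt1 and Prrx1 were lower, with Sox9, a factor of glial progenitors, at -3.11 and -3.03. Nkx6-2 and St18 were higher in newly formed oligodendrocytes than in COP-like cells, at 4.57 and 2.78 and at 2.39 and 1.85, and Sox9, Myt1 and Nfia were among the lower genes. In the myelinating class Sox9 and Nfia were higher and St18 lower than in newly formed oligodendrocytes. The list's medians were -0.65 and -1.08, -0.32 and 0.09, and 0.08 and -0.86 at the 3 steps.

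Of the 8 Wnt pathway genes around Tcf7l2, 6 had enough UMIs at the first step and 4 at each of the others. At the first step 0 were higher and 1 was lower, beside 2.69% and 7.16% of all genes. At the second 2 were higher and 1 lower, beside 5.28% and 10.4%. At the last 1 was higher and 2 were lower, beside 6.45% and 10.8%. Tcf7l1, a factor of the same family, was higher with Tcf7l2 in newly formed oligodendrocytes, at 3.23 and 3.21, as was the Wnt target Axin2, at 1.53 and 1.19, while Nkd1 was lower at -2.42 and -2.03. All 3 lay the other way in the myelinating class, with Tcf7l1 at -3.24 and -3.50. Lef1 was lower in COP-like than in OPC-like cells, at -2.54 (-4.86 to -0.93) and -2.74 (-5.10 to -1.04), with 3 UMIs in COP-like cells of each library. The list's medians were -0.88 and -0.57, 0.35 and 0.33, and -1.18 and -1.01.

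The myelin genes known to lie downstream of Sox10 and Myrf were counted as well. They were not held out of the clustering and several name the classes, so these counts describe the classes. By the same rule 6 of 10 were higher in COP-like than in OPC-like cells, 10 of 11 in newly formed oligodendrocytes than in COP-like cells, and 7 of 13 in the myelinating class than in newly formed oligodendrocytes, with 0 lower at any of them, beside 2.69%, 5.28% and 6.45% of all genes that were higher at these steps. Their medians were 1.41 and 1.30, 3.25 and 2.61, and 1.14 and 2.14. Mag was at 1.86 and 1.66 from OPC-like to COP-like cells, and Mog at 3.49 and 3.09 from newly formed oligodendrocytes to the myelinating class.

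Between the libraries, 2.22% of all genes were past 2-fold in OPC-like, 2.02% in cycling OPC-like and 3.3% in COP-like cells. In OPC-like cells 1 of 6 tested Wnt pathway genes passed it. In cycling OPC-like cells 1 of 9 further regulators and 1 of 6 Wnt pathway genes did, and in COP-like cells 1 of 10 myelin genes. They were Tcf7l1, at -1.01 (-2.19 to 0.13), in OPC-like cells, Nkx6-2, at -2.02 (-3.78 to -0.57), and Lef1, at 1.02 (0.21 to 1.87), in cycling OPC-like cells, and Mog, at -1.59 (-2.99 to -0.42), in COP-like cells. In newly formed oligodendrocytes Id2, at -1.15 (-1.93 to -0.44), Id3, at -1.32 (-2.0 to -0.69), Hes5, at -2.14 (-3.81 to -0.83), and Sox9 were lower in the library labelled SMA. Nkx6-2, at 1.07 (0.83 to 1.30), Mobp, at 1.78 (1.68 to 1.88), and Ermn were higher there. By list, 3 of 7 tested genes that hold precursors back were lower. Of 9 further regulators 2 were lower and 1 higher, and 2 of 11 myelin genes were higher, beside 6.94% of all genes in either direction. In the myelinating class Mog, at 1.28 (1.17 to 1.38), Mal, at 1.65 (1.54 to 1.76), Opalin and Ermn were higher and 0 genes of the lists were lower. These were 4 of 13 myelin genes, beside 9.21% of all genes in either direction. In the unnamed cluster 1 of 4 tested Wnt pathway genes was lower, Nkd1, beside 5.43% of all genes in either direction. Of 8 tested myelin genes 5 were lower there, among them Mbp, Mag, Mobp and Cldn11.

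The genes most like each member were found by Pearson's r of log2(CPM + 10) over 30 class and library sums, among 13263 genes, as a description without a test, since the sums share libraries, depth and cell classes. Olig1 and Olig2 were most like each other among the members (0.968), and the lowest r of any pair was that of Myrf and Sox6 (0.562). Outside the members, Olig1 was most like B3gat1 (0.968) and Olig2 most like Jakmip2 (0.974). Sox10 was most like Matn4 (0.963), a marker of the OPC list, Sox8 most like the potassium channel gene Kcnq3 (0.957) and Nkx2-2 most like Vxn (0.965). Sox6 was most like Csmd3 (0.954), Myrf most like 1700047M11Rik (0.967) and Zfp488 most like Shisal1 (0.971). Tcf7l2 had Mex3b (0.951) as its nearest gene, followed by Btbd9 and Fyn, a kinase of early myelination.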

How the data were processed

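Single-cell RNA-seq (10x Genomics 3′, version 3 chemistry) had been done on 2 libraries, 1 labelled SMA and 1 labelled Con. The deposited files hold raw UMI counts for each gene in each barcode, which the authors had made using Cell Ranger (4.0.0 per the file headers) on mm10, with no correction for depth. The labels also list Seurat 3.2.2. Groups were taken from the labels.

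Barcodes were kept with 200 to 4000 genes and under 10% mitochondrial UMIs, without SMA barcodes that are also in the Con list and without a cluster of 1339 barcodes labelled Con with a ribosomal share over 30%. Doublets were treated by the limit of 4000 genes. With scanpy 1.11.5, 2000 variable genes were reduced to 30 components and 20 neighbours, and Louvain clusters at resolution 1 (the finer division at resolution 2) were named from markers among their 60 leading genes, without the members and listed regulators. A cluster was called cycling where 5 or more of 10 cycling markers or 4 or more Mcm genes were detected. This rule and the rule for ties were set after the data were seen, as were the split by depth and the ratios within finer clusters. Classes rebuilt in this way may differ from those of the study.

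UMIs were summed by class and library and given as CPM. Intervals were exact Poisson (CPM), exact Clopper-Pearson (shares) and exact conditional binomial (ratios). Classes needed 50 cells in each library. The split of the myelinating class by depth and the deep Mog cluster went below that limit and are given as a description. With 1 library in each group no test was made. The ratio, its interval and the 2-fold call were checked on Poisson counts drawn from OPC-like means. That check held no spread between cells beyond counting error, and it did not cover the clustering, naming or thinning. The named genes were the 9 members, 5 lists and, for each member, the 3 genes of highest correlation. Members and lists were chosen with earlier results of these data known. Positions were from GENCODE M21 and promoters from RefSeq. Some genes of the lists and markers are not reported here.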

Additional observations from a re-analysis of the deposited data

How the results depend on the processing

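The results were recomputed under 10 alternatives. No paired analysis was possible because each group was 1 library. Of the CPM levels, 379 stayed in place and 143 moved, 47 of the latter with globin and mitochondrial genes out of the total. Of the list counts, 63 stayed and 7 moved. Of the ratios and steps of single genes, 751 stayed within their counting interval, 103 moved out of it and 1 that was past 2-fold changed sign, that of Sox6 in the myelinating class (0.13 at resolution 2). The 751 include 54 with no lower UMI limit and 54 with 100 or more UMIs. Those could not move, since these limits only set which genes are counted. Of the 103, 7 changed sign as well, 3 of them in the myelinating class, where Sox10 went from 0.21 to -0.33 with a mitochondrial limit of 20% and -0.27 at resolution 2, and Myrf from 0.82 to -0.02 at resolution 2. The cause of these moves was not tested. In the myelinating class, members past 2-fold between the libraries numbered 3, but 1 with a mitochondrial limit of 20%, 0 at resolution 2 and 1 with each cell weighted equally, and genes past 2-fold made up 5.46% with that limit and 4.49% at resolution 2. In newly formed oligodendrocytes the count was 0 with each cell weighted equally. The count of members was 1 in cycling against other OPC-like cells with the 20% limit, and 1 in the unnamed Dll1 and Grk3 cluster in deep cells and with no lower UMI limit. With the shared barcodes kept, 18.4% of genes were past 2-fold between COP-like and OPC-like cells. The limit on UMIs set the background shares. In the OPC-like, cycling OPC-like, unnamed, COP-like, newly formed and myelinating classes they were 9.30%, 8.66%, 15.9%, 9.62%, 15% and 18.3% with no lower limit, and 0.395%, 0.358%, 0.778%, 0.581%, 2.12% and 3.71% with 100 or more UMIs. Newly formed oligodendrocytes were in no class of their own with the shared barcodes kept, with the 20% limit and at resolution 2, nor was the unnamed cluster with the 20% limit, where its leading genes marked an OPC-like cluster. Under 50 cells in a library were left in the unnamed cluster without the highest Scrublet scores, and in the myelinating class among deep cells and with the shared barcodes kept. These comparisons were not run as alternatives, although levels in the deep myelinating cells are given above. Depth limits Zfp488 and Myrf in OPC-like cells and all members in the shallow myelinating class, and a single library in each group leaves the spread between animals unknown.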
